A study of Rattus norvegicus with 53 samples.

Results

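Peripheral blood mononuclear cells (PBMCs) of healthy male Brown Norway (BN) rats were cultured in serum of another BN rat (allogeneic serum, replicates 4 to 15, 12 arrays) or in the donor's own serum (autologous serum, replicates 7 to 10, 4 arrays). These 16 arrays were taken by their replicate numbers from the 53 arrays of the series, which cover 8 culture conditions. Cells and serum of both groups came from rats of 180 days, and the cultures ran for 6 h with serum at 20%, a share the design gives beside the autologous cultures. BN is an inbred strain, and neither serum came from a BB rat, the diabetes model of the series, or received a cytokine or drug. The liquid is called serum in the sample names and plasma in the protocols. The comparison asks how serum of another healthy BN rat differed from the cells' own. The labels do not say which cultures shared a cell donor or a serum donor, so p-values measure only the spread between these arrays, which may be technical.

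PBMCs are the lymphocytes and monocytes that a density gradient recovers from blood, with platelets and some red cell precursors carried along. Serum contains cytokines, hormones, lipids and antibodies, and monocytes answer such factors within hours by switching on immediate early genes, NF-kappaB target genes and cytokines. Cells of one inbred strain share their histocompatibility alleles, so serum of another animal of that strain is not foreign in its tissue type.

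Affymetrix rat arrays were read as log2 expression values, in which a step of 1 is a doubling. Of 31042 probe sets tested, 20826 had 1 gene symbol, and 14217 genes were each described by the probe set of the highest mean. The mean log2 level of 21 T cell genes ran from 7.72 to 8.87 in the 12 allogeneic arrays and from 7.99 to 9.03 in the 4 autologous arrays. That of 11 B cell genes ran from 7.84 to 8.92 in the allogeneic and from 8.45 to 8.92 in the autologous arrays. The labels name no array run. In Ward clustering of all 53 arrays over 31042 probe sets, all 16 arrays of the comparison fell into one cluster, and the 9 lower-numbered arrays of the same 2 conditions (allogeneic replicates 1 to 3, autologous replicates 1 to 6) into the other. With 1 probe set per gene, 14 of the 16 did so.

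No gene, as described by its representative probe set, differed between allogeneic and autologous serum at an adjusted p under 0.05 (limma with Benjamini-Hochberg adjustment over 31042 probe sets, 0 of 14217 genes, 0%). Over all probe sets 3 were called (0.00966%), all 3 higher with allogeneic serum. At an unadjusted p under 0.05 the fit marked 4377 probe sets (14.1%). Among genes that level was met by 341 that were higher (2.4%) and 2179 that were lower (15.3%) with allogeneic serum. After a second quantile normalization, which gives every array the same set of values, it was met by 1814 genes, 1273 of them lower (8.95% of all genes). All 12 allogeneic arrays lay above all 4 autologous arrays for 8 genes (0.0563%) and below all 4 for 18 genes (0.127%). By probe set these counts were 39 (0.126%) and 34 (0.11%).

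The one called probe set with a gene symbol was 1379603_at of Cbl, an E3 ubiquitin ligase that turns off receptor tyrosine kinase and T cell receptor signalling. Its log2 level was lowest at 8.22, with a median of 9.17 and a highest value of 9.90, in the 12 allogeneic arrays, against 7.92, 7.38, 7.58 and 7.78 in autologous replicates 7 to 10. The groups did not overlap. The difference was 1.503 (SE 0.25, adjusted p = 0.0421 by limma), or 2.83-fold. None of the other Cbl probe sets passed. Probe set 1380069_at differed by 0.62 (adjusted p = 0.241), 1375732_at by 0.30 (adjusted p = 0.497) and 1388505_at, which represents the gene, by -0.05 (adjusted p = 0.932). The call on 1379603_at was lost in 10 of the 16 fits that left out 1 array, with adjusted p up to 0.44 without autologous replicate 8, and after the second quantile normalization (adjusted p = 0.0548).

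The 2 other called probe sets carry no gene symbol in the annotation used. Probe set 1382987_at ranged from 6.73 to 9.17 with a median of 8.31 in the allogeneic arrays and stood at 6.09, 5.91, 6.41 and 6.32 in the autologous arrays, a difference of 2.03 (SE 0.29, adjusted p = 0.0106). Probe set 1380084_at ranged from 6.64 to 7.72 with a median of 7.06 in the allogeneic arrays and stood at 6.22, 5.81, 5.83 and 5.98 in the autologous arrays, a difference of 1.18 (SE 0.17, adjusted p = 0.0106). Again no allogeneic array fell to the level of an autologous one. Each of these calls held in 14 of 16 fits without 1 array, and both were lost without autologous replicate 8 or 9. Other sera gave values across the span of both groups. Probe set 1382987_at averaged 7.14 ± 1.08 (SD, n = 4) with autologous serum plus IL-1B, 6.07 ± 0.61 (n = 4) with d60 DRlyp/lyp serum and 6.48 ± 0.78 (n = 4) with d60 DR+/+ serum. In the lower-numbered arrays it averaged 6.72 ± 2.46 (n = 3) with allogeneic and 9.07 ± 0.31 (n = 6) with autologous serum, the opposite order. The combined 15 against 10 arrays gave a difference of 0.0030. That value mixes the levels of the array sets, between which the sera are unevenly split, so it is not read as a serum difference.

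Below the threshold, the gene nearest to a call on the higher side was Ddx6, an RNA helicase of mRNA decapping. Its representative probe set 1389868_at ranged from 9.35 to 10.72 with a median of 10.32 in the allogeneic arrays, against 9.78, 8.94, 8.71 and 8.78 in the autologous arrays. The difference was 1.18 (SE 0.23, adjusted p = 0.141), and 11 of 12 allogeneic arrays were above every autologous array. A second Ddx6 probe set, 1392854_at, went the other way. It ranged from 5.22 to 6.61 in the allogeneic arrays and stood at 6.90, 9.10, 9.21 and 6.66 in the autologous arrays, a difference of -2.03 (adjusted p = 0.0621). The last Ddx6 probe set, 1398945_at, differed by -0.05 (adjusted p = 0.934), so the probe sets of this gene give no common direction.

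Among the other genes of smallest p on the higher side, Sh3bgrl1 ranged from 8.49 to 9.89 (median 9.18) with allogeneic serum and stood at 7.58, 6.71, 8.38 and 8.56 with autologous serum, a difference of 1.36 (SE 0.29, adjusted p = 0.167). Vcpip1, a deubiquitinase that works with the ATPase VCP, ranged from 6.63 to 8.16 (median 7.29) and stood at 6.46, 6.13, 6.43 and 6.64 in the autologous arrays, a difference of 0.92 (adjusted p = 0.237). For both, 11 of 12 allogeneic arrays were above every autologous array. Wac, an adaptor for histone H2B ubiquitination, differed by 0.61 (adjusted p = 0.241). The remaining 4 had smaller differences: Dact1 and Wif1, which encode modulators of Wnt signalling, at 0.58 and 0.35, Tchh, trichohyalin of the hair follicle, at 0.31, and Cmya5, a muscle protein, at 0.41, all with an adjusted p of 0.241. Dact1 and Tchh were separate in all 12 arrays.

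On the lower side the smallest p belonged to Imp3, a protein of the U3 small nucleolar ribonucleoprotein that processes ribosomal RNA. It ranged from 5.63 to 7.11 (median 6.32) with allogeneic serum and stood at 7.46, 7.66, 7.44 and 6.91 with autologous serum, a difference of -1.08 (SE 0.20, adjusted p = 0.135). Allogeneic replicate 7 was the 1 of 12 that reached into the autologous range. Mcu, the pore of the mitochondrial calcium uniporter, ranged from 5.08 to 5.84 (median 5.32) and stood at 6.28, 6.19, 6.02 and 6.04 in the autologous arrays, a difference of -0.74 (SE 0.15, adjusted p = 0.141). Its groups did not overlap.

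Ins2, which encodes insulin and is not a known product of blood cells, ranged from 3.62 to 4.68 (median 4.04) with allogeneic serum and stood at 5.49, 6.18, 4.38 and 4.25 with autologous serum, a difference of -1.05 (adjusted p = 0.237). Autologous replicates 7 and 8 were the 2 high arrays, and replicates 9 and 10 lay inside the allogeneic range. Tfpt, a subunit of the INO80 chromatin remodeller, differed by -1.21 (adjusted p = 0.181), Med28, a subunit of Mediator, by -1.04 (adjusted p = 0.237), and Chtf8, part of a clamp loader of DNA replication, by -0.82 (adjusted p = 0.237). Pex2, of peroxisome assembly, differed by -0.75 (adjusted p = 0.181), and Ikbip, a partner of IKK-beta, by -0.72 (adjusted p = 0.237). For each of these 5, 11 of 12 allogeneic arrays were below all 4 autologous arrays. In a model of all 53 arrays 3 probe sets were called, all lower and none of them among the 3 above. Imp3 (adjusted p = 0.0171) and Ins2 (adjusted p = 0.0231) were 2 of them.

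**Figure D1:**
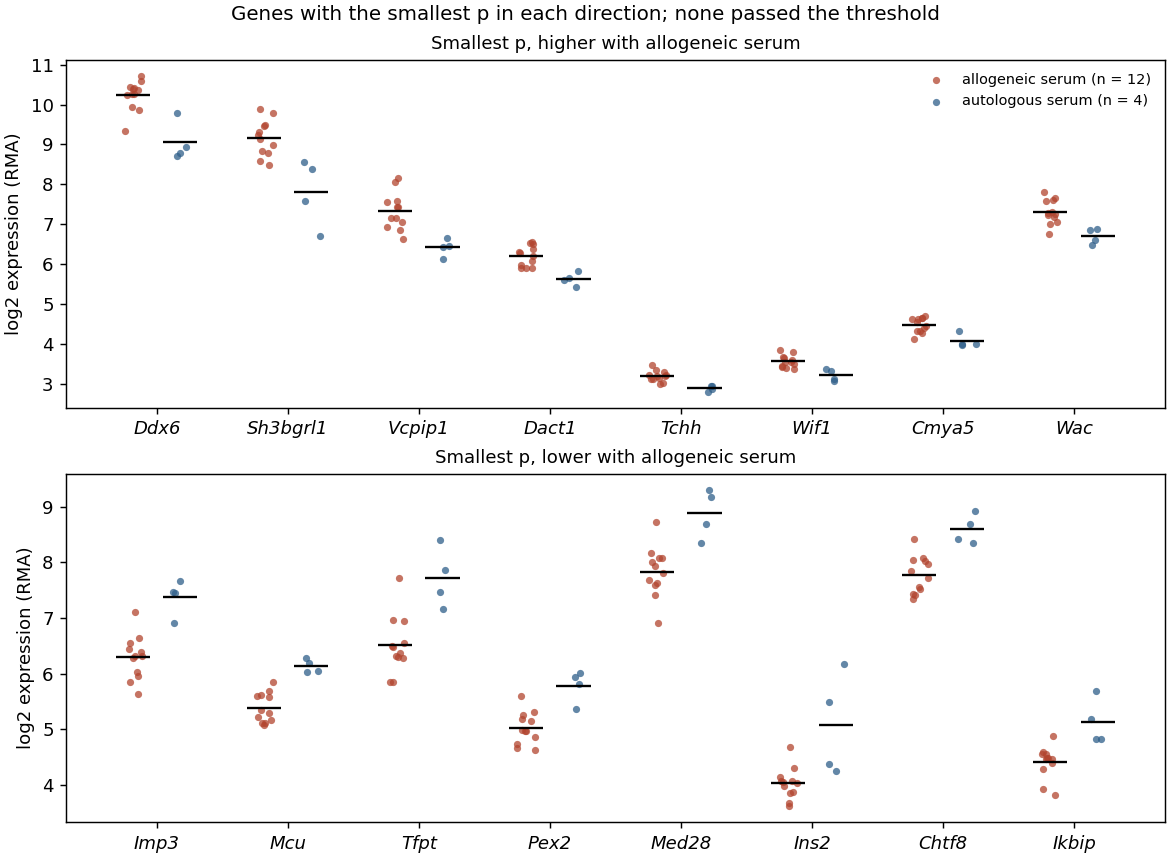
Log2 expression of the 8 genes of smallest p in each direction, with 1 point per array and a line at the group mean, for 12 allogeneic arrays (left of each pair) and 4 autologous arrays. Dact1, Tchh and Mcu are separate in the 2 groups, the other genes overlap in at least 1 array, and none passed the threshold.

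The lean towards lower values followed expression level. Across genes the median log2 difference, allogeneic minus autologous, was 0.03 for 1484 genes with a mean level under 4, 0.04 for 4601 genes between 4 and 6, -0.14 for 4624 genes between 6 and 8, -0.28 for 2853 genes between 8 and 10, and -0.40 for 655 genes between 10 and 15. In that last set 92.8% of genes were lower with allogeneic serum. After the second quantile normalization the 5 medians were 0.0019, 0.00086, -0.05, -0.05 and -0.01, and 51.9% of the brightest genes were lower. Across the 14217 genes, which are not independent replicates, Pearson's r between difference and level was -0.46 as deposited and -0.03 after that normalization.

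The values of single arrays were compressed to unlike degrees. The SD of the log2 values within an array ranged from 1.81 to 2.11 in the allogeneic arrays (mean 1.94) and from 2.00 to 2.12 in the autologous arrays (mean 2.05). The difference of -0.11 had an exact two-sided permutation p of 0.0527 (n = 12 and 4, adjusted p = 0.211 over 4 array measures; the smallest p that 1820 splits allow is 0.0011). Allogeneic replicates 4, 6, 9, 11 and 12 had an SD of 1.81 to 1.87, below every autologous array. The other 7 allogeneic arrays lay between 1.96 and 2.11. The 3′ minus 5′ actin difference, which is larger in degraded RNA, averaged 2.78 ± 0.39 in the allogeneic and 2.56 ± 0.17 in the autologous arrays (SD, n = 12 and 4, exact permutation p = 0.302). With the array SD as a covariate limma called 0 probe sets (1591 at an unadjusted p under 0.05), and among arrays with an SD of at least 1.9 it called 0 (2129 at that level). The part of this compression in the lower values of bright genes was not tested.

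**Figure D2:**
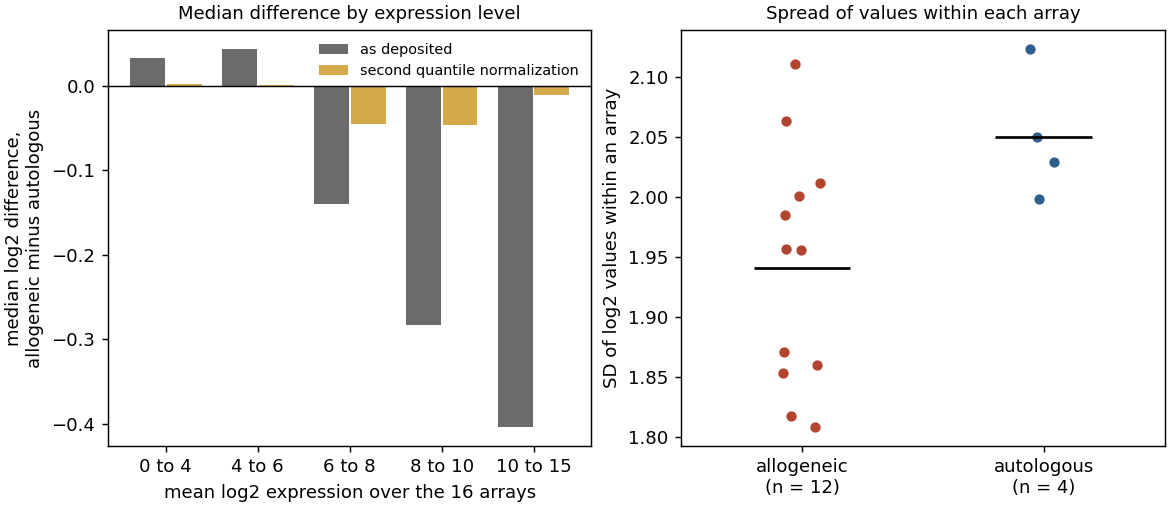
Left, the median log2 difference of genes, allogeneic minus autologous, in 5 classes of mean expression, as deposited (grey) and after a second quantile normalization (yellow); the grey bars run from 0.03 at the low end to -0.40 at the high end. Right, the SD of the log2 values within each array, with 12 allogeneic arrays on the left and 4 autologous arrays on the right and a line at the mean; 5 allogeneic arrays lie under 1.9.

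The gene lists that serum factors would be known to move gave 0 called members each, as did all genes (0 of 14217), so they are described by their medians beside the all-gene median of -0.06 (-0.02 after quantile normalization). Cytokines and CXC chemokines, 27 genes, had a median of 0.04 (-0.01), and 12 CC chemokines one of -0.07 (0.03). Immediate early genes, 25 in number, had a median of -0.0047 (0.12). NF-kappaB genes, 18 in number, had a median of -0.40 (-0.20), with 16 lower. For 25 interferon response genes it was -0.34 (-0.22), with 22 lower. Of all genes 59.9% were lower as deposited, with 68.2% at a mean level of 6 to 8. The median levels of the NF-kappaB and interferon lists over the allogeneic arrays were 7.86 and 7.10. At an unadjusted p under 0.05 these lists held 8 and 9 lower members as deposited, against 15.3% of all genes. After normalization they held 4 and 8, against 8.95% of all genes.

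For genes named for the smallest p in their lists the arrays were as follows. Irf1, the interferon regulatory factor that acts first after interferon, ranged from 8.16 to 9.82 (median 8.45) with allogeneic serum and stood at 9.96, 10.47, 10.01 and 9.21 with autologous serum, a difference of -1.18 (SE 0.29, adjusted p = 0.237). Nfkb2, an NF-kappaB subunit, ranged from 6.16 to 8.73 (median 7.06) and stood at 8.67, 9.15, 8.27 and 7.61 in the autologous arrays, a difference of -1.13 (adjusted p = 0.241). Nfkbia, the inhibitor IkB-alpha and itself an NF-kappaB target, ranged from 8.39 to 10.71 (median 9.23) and stood at 10.79, 11.20, 10.45 and 9.58, a difference of -1.16 (adjusted p = 0.241). Allogeneic replicate 7 was the highest of the 12 for all 3 genes and autologous replicate 10 the lowest of the 4, and the groups overlapped for each. Allogeneic replicate 7 lay above autologous replicate 10 for Irf1, above 9 and 10 for Nfkbia, and above 7, 9 and 10 for Nfkb2. Relb at -0.74 and Tap1, a peptide transporter for class I molecules, at -0.59 did not pass either (adjusted p = 0.241 and 0.244).

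As deposited, the lowest list medians belonged to genes of protein and energy turnover. Ribosomal proteins (28 measured) had a median of -0.66, with 27 lower, and 29 proteasome genes one of -0.58, with 28 lower. For 35 respiratory chain genes it was -0.52, with 34 lower. Of all genes 59.9% were lower, with 82.8% at a mean level of 8 to 10 and 92.8% at 10 to 15. These lists had median levels over the allogeneic arrays of 11.3, 8.99 and 9.03. At an unadjusted p under 0.05 they held 12, 22 and 22 lower members and no higher one, against 15.3% of all genes. After quantile normalization the medians were -0.20, -0.31 and -0.27, and 6, 13 and 11 members met that level, against 8.95% of all genes. On that scale sterol genes (-0.25) and interferon response genes (-0.22) had lower medians than ribosomal proteins. Cox4i1, of cytochrome c oxidase, ranged from 7.68 to 10.47 (median 8.89) with allogeneic serum and stood at 10.92, 10.52, 9.85 and 9.49 with autologous serum, a difference of -1.27 (adjusted p = 0.241). Psme1, the alpha subunit of the proteasome activator PA28, ranged from 9.10 to 10.69 (median 9.67) and stood at 10.84, 10.95, 10.82 and 10.18, a difference of -0.93 (adjusted p = 0.241). Allogeneic replicate 12 was the lowest of the 12 and replicate 7 the highest for both.

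Other functional lists had no call either. As deposited and after quantile normalization, they were -0.36 and -0.16 for 23 genes of ER and amino acid stress, -0.34 and -0.25 for 18 sterol genes, -0.28 and -0.12 for 21 pattern and Fc receptors, -0.25 and -0.11 for 11 MHC class II genes, -0.17 and -0.19 for 25 cell cycle genes, -0.16 and 0.04 for 16 glucocorticoid target genes, and -0.11 and 0.05 for 18 redox genes. Members with the smallest p were Ddit3, the stress factor CHOP, at -1.02 (adjusted p = 0.241), Pycard, the inflammasome adaptor ASC, at -1.13 (0.241), Cd74, the class II invariant chain, at -0.87 (0.259), Mcm6, of the replication helicase, at -0.91 (0.241) and Pmvk, of sterol synthesis, at -0.55 (0.244). Ptgs2, the inducible cyclooxygenase, was dim in both groups at 2.69 to 3.11 with allogeneic serum and 3.22, 3.05, 2.80 and 3.71 with autologous serum, a difference of -0.31 (adjusted p = 0.259).

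The 12 allogeneic arrays differed among themselves. The SD of the median gene was 0.288 over the 12 allogeneic arrays and 0.241 over the 4 autologous arrays. The root mean square SD over genes was 0.343 and 0.324, against 0.302 for the arrays with IL-1B added, 0.463 for d60 DR+/+ serum, 0.312 for d60 DRlyp/lyp serum and 0.259 for that last serum plus IL-1RA (4 arrays each). In the lower-numbered arrays it was 0.363 with allogeneic serum (n = 3) and 0.282 with autologous serum (n = 6). The first principal component of the 12 arrays held 36.3% of the variance and put the 5 compressed arrays on one side (scores 22.6 to 31.6) and the other 7 on the other (-38.8 to -2.6). Because the arrays fell into those 2 sets, a relation of that component with actin was computed only over the 7 arrays with an SD of at least 1.9. Pearson's r was -0.04 (exact permutation p = 0.925) and Spearman's rho was -0.14 (exact permutation p = 0.783), and r was 0.27 without the 2 arrays farthest from the median.

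The closest pairs of arrays were allogeneic replicate 13 with autologous replicate 10 (r = 0.994 over genes), allogeneic 10 with autologous 9 (0.992) and allogeneic 7 with autologous 8 (0.991), against at most 0.990 among allogeneic and 0.986 among autologous arrays. In all, 4 of 12 allogeneic and 3 of 4 autologous arrays had their nearest array in the other group. Each allogeneic array had 11 others of its own serum and 4 of the other serum to choose from, and each autologous array had 3 and 12, so these counts are read no further. The labels do not say whether such pairs share a cell donor.

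The 12 genes of largest SD over the allogeneic arrays were Fos, Fn1, Bhlhe22, Hsp90ab1, Mpeg1, Nipbl, Selenop, Ddx39b, Gpnmb, Ube2q2, Zfp91 and Uba7, picked for that value among genes above the median level, so their spread is a description. Fos, the immediate early transcription factor, was lowest at 6.18 in replicate 12 and highest at 10.08 in replicate 15, with a median of 7.18, and the autologous arrays stood at 7.36, 7.08, 7.11 and 6.88. Fn1, fibronectin, was lowest at 6.30 in replicate 5 and highest at 9.92 in replicate 15, with a median of 7.39, against 7.04, 8.97, 7.66 and 6.69 in the autologous arrays. Mpeg1, the pore-forming perforin-2 of macrophages, was lowest at 6.21 in replicate 8 and highest at 9.42 in replicate 15, with a median of 6.80, against 6.64, 7.83, 7.05 and 6.98. Replicate 15 alone was over 9 for these 3 genes, and no autologous array reached it.

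Genes whose levels followed Fn1 most closely over the 12 arrays were Tnfsf13, the B cell factor APRIL (r = 0.974), Mpeg1 (0.969), Cd14, the lipopolysaccharide co-receptor of monocytes (0.959), and Vcan, the matrix proteoglycan versican (0.950). Without the 2 arrays farthest from the Fn1 median these were 0.932, 0.939, 0.919 and 0.950. All such genes are the 4 of highest r among 14216 genes, so r describes these 12 arrays, and over the 48 pairs Spearman's rho ran from 0.776 to 0.986. Without the 2 farthest arrays r ran from 0.739 to 0.977 over those pairs, with 0.759 for Tgfbi and Fos and 0.763 for Ccr1 and Gpnmb. Cd14 ran from 5.81 in replicate 5 to 8.67 in replicate 15 (median 6.77) with allogeneic serum and stood at 6.81, 7.85, 7.31 and 6.51 with autologous serum. Genes that followed Fos were Tlr7, the receptor for single-stranded RNA (0.934), Snx10 (0.927), Tgfbi (0.923) and Pno1 (0.904), and Tgfbi reached 8.94 in replicate 15 against a median of 5.37. Gpnmb, a glycoprotein of macrophages, was lowest at 7.51 in replicate 12 and highest at 10.67 in replicate 15, with Dusp1, a phosphatase of MAP kinases (0.945), Pgd (0.930) and Ccr1, a chemokine receptor (0.911), nearest to it.

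For Fn1, Mpeg1 and Cd14 allogeneic replicate 15 lay within the range of the cultures with d60 DR+/+ serum, from BB rats of 60 days. With d60 DR+/+ serum Fn1 averaged 10.22 ± 0.73 (SD, n = 4, from 9.62 to 11.20) and Mpeg1 9.35 ± 0.50 (from 8.86 to 9.97), and with d60 DRlyp/lyp serum Fn1 averaged 9.504 ± 0.53 (n = 4) and Mpeg1 8.68 ± 0.22. Cd14 averaged 8.82 ± 0.68 with d60 DR+/+ serum. Tgfbi in replicate 15, at 8.94, was above its highest d60 DR+/+ value of 8.69. These genes were picked for their spread over the allogeneic arrays or for following such genes. Fos and Gpnmb, also highest in replicate 15, are not compared here.

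The monocyte list covers more genes but is not independent of those above, Fn1, Mpeg1, Cd14, Vcan and Tgfbi being 5 of its 29. The counts below include these 5. Replicate 15 held the highest value of the 12 for 18 of 29 members (62.1%), against 6.11% of all genes, and for 19 after quantile normalization. The mean level of the list was 5.95 in replicate 12, 6.31 at the median and 7.32 in replicate 15, and 6.32 to 6.84 in the autologous arrays. Between the sera its median difference was -0.09 (-0.03 after quantile normalization). Tyrobp, the adaptor DAP12, at -0.67 (adjusted p = 0.291) and Cebpa, a myeloid transcription factor, at 0.42 (adjusted p = 0.268) had the smallest p in it. In such bulk cultures fewer cells of a type and less of its RNA per cell cannot be told apart.

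**Figure D3:**
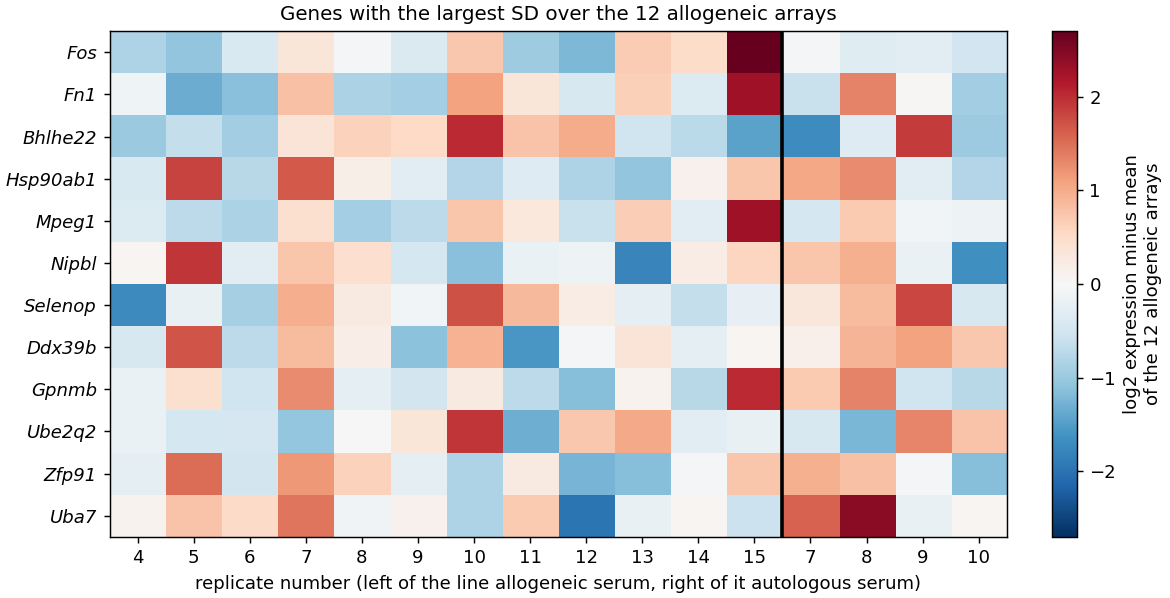
Log2 expression of the 12 genes of largest SD over the allogeneic arrays, each minus its mean over those 12 arrays, with the 12 allogeneic arrays left of the line and 4 autologous arrays right of it. Fos, Fn1, Mpeg1 and Gpnmb are highest in allogeneic replicate 15, Hsp90ab1, Nipbl and Zfp91 in replicate 5, and Uba7 is lowest in replicate 12.

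A second set of genes was high in replicate 5. Hsp90ab1, the constitutive HSP90 chaperone, was lowest at 7.64 in replicate 13 and highest at 10.53 in replicate 5, with a median of 8.38. Nipbl, the loader of cohesin, ranged from 7.68 in replicate 13 to 11.38 in replicate 5, Ddx39b, a helicase of mRNA export, from 7.02 in replicate 11 to 10.28 in replicate 5, and Zfp91 from 6.08 in replicate 12 to 8.85 in replicate 5. The second Hsp90ab1 probe set had an SD of 0.59 against 0.95 for the first, and the 4 Nipbl probe sets had SDs of 0.43 to 0.93. Stat3 (r = 0.937 with Nipbl) ranged from 6.98 to 8.61 with allogeneic serum and stood at 8.03, 7.16, 6.90 and 7.29 with autologous serum, a difference of 0.63 (adjusted p = 0.268). Autologous replicates 7 and 8 were also high in Hsp90ab1, at 9.75 and 9.98, and replicates 9 and 10 low, at 8.41 and 7.92.

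Another set was high in replicate 10. Bhlhe22, a helix-loop-helix transcription factor, was lowest at 7.20 in replicate 15 and highest at 10.66 in replicate 10 (median 8.55), and stood at 6.94, 8.30, 10.54 and 7.65 in the autologous arrays. Selenop, the selenium carrier selenoprotein P, ranged from 6.54 in replicate 4 to 9.97 in replicate 10, and Ube2q2, a ubiquitin-conjugating enzyme, from 6.03 in replicate 11 to 9.28 in replicate 10. Nearest to Bhlhe22 were Rab3ip (r = 0.955), Mfsd4a (0.922), Fntb (0.910) and Lef1, a transcription factor of T cells (0.909). Lef1 ran from 7.77 in replicate 15 to 9.98 in replicate 10. Autologous replicate 9 was the highest of the 4 in Bhlhe22, Selenop, Ube2q2, Rab3ip and Lef1, and it is the array nearest to allogeneic replicate 10.

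Uba7, the enzyme that activates the interferon-induced modifier ISG15, was lowest at 5.23 in replicate 12 and highest at 8.65 in replicate 7, with a median of 7.28, and stood at 8.80, 9.64, 6.99 and 7.25 in the autologous arrays. Followers were Sap30l (r = 0.974), Tpd52l1 (0.968), Cst3, the protease inhibitor cystatin C (0.968), and Sh3bgrl3 (0.962). Cst3 ran from 9.04 in replicate 12 to 11.70 in replicate 7 with allogeneic serum and stood at 12.13, 12.09, 10.35 and 10.82 with autologous serum. Autologous replicates 7 and 8 were the 2 high arrays for Uba7, Cst3 and Sh3bgrl3.

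Platelet and red cell transcripts also varied between the allogeneic arrays. The mean level of 20 platelet genes was 8.83 in replicate 12, 10.09 at the median and 10.68 in replicate 11, and 9.59 to 10.74 in the autologous arrays. Pf4, platelet factor 4, ranged from 11.98 to 13.81 (median 13.33) with allogeneic serum and stood at 13.73, 13.78, 13.48 and 13.71 with autologous serum (difference -0.48, adjusted p = 0.437). The list's median difference was -0.25 as deposited and turned to 0.06 after quantile normalization, with 0 members at an unadjusted p under 0.05. Replicate 12 held the lowest value for 17 of 20 platelet genes (85.0%), 12 of 16 erythroid genes and 24 of 28 ribosomal genes (85.7%), against 20.0% of all genes. After quantile normalization these counts were 9, 5 and 10, against 12.8% of all genes. Replicate 12 had the lowest within-array SD of the 16 arrays, 1.81. The platelet, erythroid and ribosomal lists had median levels over the allogeneic arrays of 10.1, 9.54 and 11.3. The part of that compression in these counts was not tested. The erythroid mean ran from 8.68 in replicate 12 to 9.95 in replicate 15, and from 9.56 to 9.86 in the autologous arrays.

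Lymphocyte lists differed between arrays of the same serum. The T cell mean was lowest in replicate 6 at 7.72 and highest in replicate 10 at 8.87, where 12 of 21 members had their highest value (57.1%, against 17.6% of all genes). After quantile normalization replicate 10 held 3 of the 21 highest values and replicate 12 held 9. Lat, an adaptor of the T cell receptor, ranged from 7.79 to 9.61 (median 8.22) with allogeneic serum and stood at 9.27, 9.82, 9.82 and 8.17 with autologous serum, a difference of -0.92 (adjusted p = 0.254). The median differences of T, B and natural killer lists were -0.34, -0.37 and -0.32 as deposited and -0.08, -0.11 and -0.17 after quantile normalization. The part of these marker levels in the differences between sera was not tested.

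**Figure D4:**
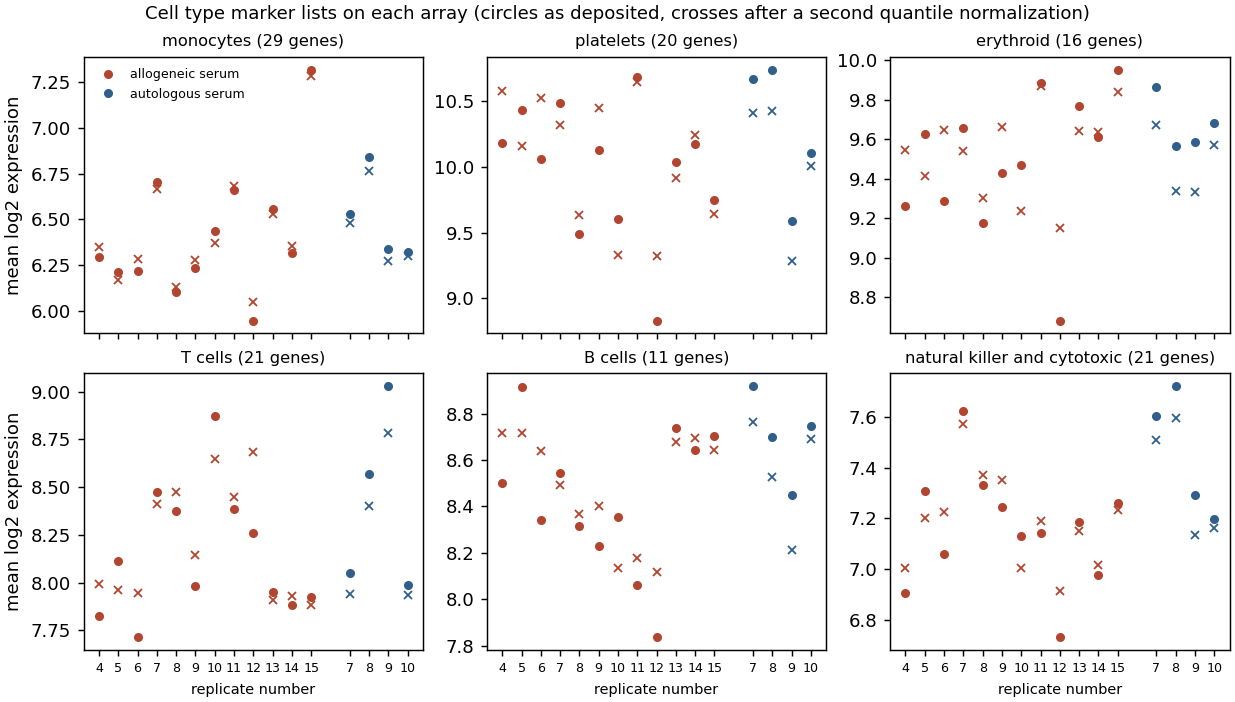
Mean log2 expression of 6 cell type lists on each array, as deposited (circles) and after a second quantile normalization (crosses), for allogeneic replicates 4 to 15 on the left and autologous replicates 7 to 10 on the right of each panel. Monocyte genes are highest in allogeneic replicate 15 on both scales, and platelet genes lowest in allogeneic replicate 12 as deposited.

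The same contrast exists in the 9 lower-numbered arrays, with 3 allogeneic and 6 autologous arrays. There 3 probe sets were called (0.00966%), of which 1 represents a gene (Cdk12, 0.00703% of genes), all lower with allogeneic serum: Cdk12, a kinase of transcription elongation, at -2.17, Cdk11b, a related kinase, at -2.18, and Pals1, a cell polarity scaffold, at -1.79 (adjusted p = 0.0333, 0.0333 and 0.0336 by limma). In the 12 against 4 arrays these differed by 0.58, 0.12 and 0.19, none called. The lower-numbered count was 1154 without allogeneic replicate 1, 1042 without autologous replicate 1 and 0 without any other single array. Of the 16 genes of smallest p above, 6 had the same sign in the lower-numbered arrays, 4 had an unadjusted p under 0.05 there, and none had both. The called probe sets of the 12 against 4 arrays had differences of -2.35 (1382987_at), -1.16 (Cbl 1379603_at) and -0.72 (1380084_at) there.

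A test of the difference between the contrasts called 401 probe sets (1.29%), 383 of them more positive in the 12 against 4 arrays, and by gene 54 more positive (0.38%) and 9 more negative (0.0633%). With lower-numbered allogeneic replicate 2 left out 2 probe sets were called, and 0 with actin as a covariate. That array had a 3′ minus 5′ actin difference of 0.762, against 2.81 to 4.31 in the other 8. The representative probe set of Ddx6 shows the pattern. In the lower-numbered arrays it stood at 11.19, 6.37 and 6.92 with allogeneic serum and at 9.72 to 11.58 with autologous serum. Replicates 2 and 3 were thus low and replicate 1 was not. Cdk12 stood at 5.28, 5.10 and 4.89 with allogeneic serum and at 6.33 to 7.62 with autologous serum, without overlap, and its call was 1 of the 2 that held without replicate 2. Vcpip1 and Wac, 2 of the 16 genes of smallest p, also differed between the contrasts, by 1.75 (adjusted p = 0.0182) and 2.24 (adjusted p = 0.00847).

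**Figure D5:**
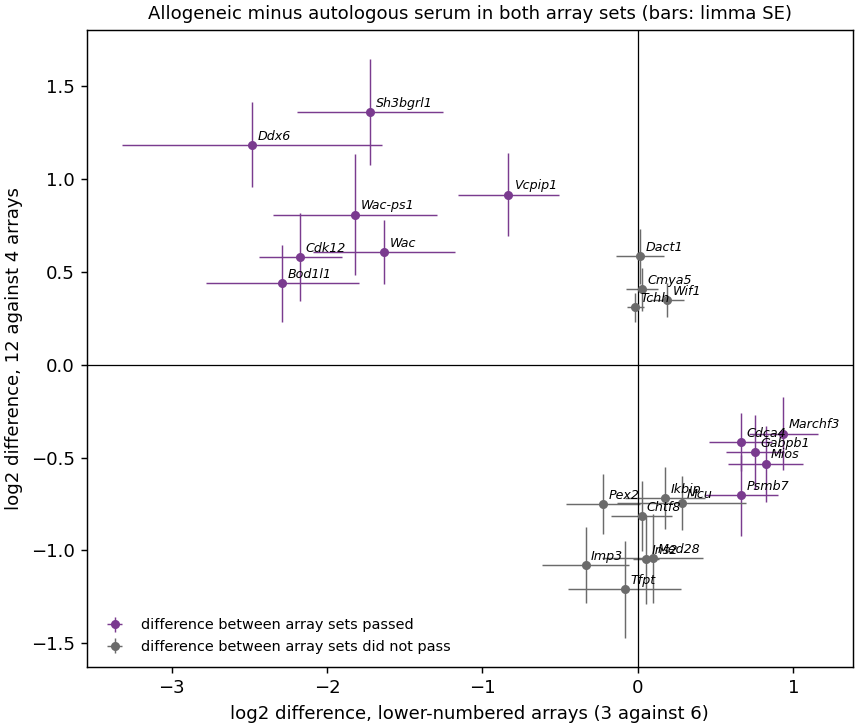
Log2 difference, allogeneic minus autologous, of the named genes in the 9 lower-numbered arrays (horizontal) and in the 12 against 4 arrays (vertical), with limma standard errors. Genes whose difference between the array sets passed (purple) lie in the upper left and lower right, with opposite signs. Picking genes by the largest difference between the sets favours such signs. The test of that difference called 401 probe sets, 2 without lower-numbered allogeneic replicate 2 and 0 with actin as a covariate.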

How the data were processed

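The deposited series matrix held 53 arrays and 31099 probe sets as log2 values that the authors made with RMA, and Partek 6.2 is also named, per the submitters' processing notes. What each program did, and with which options, is not given in those notes. All columns carried a sample title. Of the probe sets, 57 controls were left out, 436 with several symbols and 9780 with none went unnamed, and 14217 genes were described by the probe set of highest mean, with the platform annotation for symbols (14204 are in the RefSeq table).

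The 12 allogeneic and 4 autologous arrays were fitted together in limma 3.58.1 (R 4.3.3) with a mean-variance trend and Benjamini-Hochberg adjustment over 31042 probe sets, calling an adjusted p under 0.05. Single array measures were compared by exact permutation (scipy 1.17.1). The fit was tested on simulated data with 200 changed probe sets. Arrays have no read depth, so their number limits the precision. Named genes were the called ones (up to 12 in each direction); in a direction with under 5 called genes, the 8 of smallest p; in each list up to 4 called or the 2 of smallest p; up to 5 per direction for the difference between array sets; the 12 of largest SD over the allogeneic arrays above the median level; and the 4 of highest r to each of these. The 3 probe sets called without being a gene's representative, the other probe sets of named genes, Pals1 and Cdk11b were added after their values were seen. Members, groups and lists were chosen with earlier results of these data known. Alternatives covered normalization, filters, priors, covariates, replicate numbers as a block and each array left out.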

Additional observations from a re-analysis of the deposited data

Results flagged for a closer look

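In the 4 autologous arrays, 1 array stood apart from the other 3 in 4 of 96 groups examined, and chance gives about 1 in 20. Cmya5 was highest at 4.31 and Cxcl1, a neutrophil chemokine, was highest at 4.77. Gabpb1, a subunit of an ETS transcription factor, was lowest at 8.51 and Psme1 was lowest at 10.18.

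The difference between allogeneic and autologous serum was not the same in the 12 against 4 arrays as in the 9 lower-numbered arrays for the 5 called genes of largest difference in each direction, 10 in all, by a test of the difference itself in limma. The first array set minus the second gave log2 3.67 for Ddx6 (adjusted p = 0.0127), 3.08 for Sh3bgrl1 (0.00495), 2.75 for Cdk12 (0.000943), 2.73 for Bod1l1 (0.00533) and 2.63 for the pseudogene Wac-ps1 (0.0275). Wac-ps1 may share sequence with Wac, so its probe set is uncertain. The Ddx6 value is that of its representative probe set alone, and the Ddx6 probe sets gave no common direction in the 12 against 4 arrays. The same subtraction gave -1.37 for Psmb7, a catalytic proteasome subunit (0.0343), -1.35 for Mios, of the GATOR2 complex (0.0295), -1.31 for Marchf3, a membrane ubiquitin ligase (0.0275), -1.23 for Gabpb1 (0.0304) and -1.08 for Cdca4 (0.0208). Signs were opposite in the array sets for all 10, which picking the largest differences favours. With actin as a covariate none of the 10 was called, and without allogeneic replicate 2 only Cdk12 was, of the 10. The lower-numbered arrays with allogeneic serum number 3.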

How the results depend on the processing

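The main count of 3 probe sets was 4171 (2008 higher, 2163 lower, none shared) in all 15 against all 10 arrays and 0 with the array set as a block. It was 0 with 1 probe set per gene, 0 at an adjusted p under 0.01, 7 with array weights, 24 at an adjusted p under 0.2 with a difference of at least 0.5, and 3 in a model of all 53 arrays, with none shared. A second quantile normalization, median centring, no trend and the actin covariate each left 2, shared with the main 3. Leaving out 1 array gave 0 to 10: 0 without autologous replicate 8 or 9, 10 without allogeneic replicate 7, 6 without allogeneic 10 or 13 and 5 without autologous 10. Fits chosen after seeing the data gave 0 with the array SD as a covariate and 0 among arrays with an SD of at least 1.9. The replicate block over numbers 7 to 10 called 4 (1 shared), against 1 without it on those 8 arrays. With each group's mean subtracted gene by gene, same-numbered arrays of the sera correlated at 0.29, -0.06, -0.28 and -0.07, so the numbers were not read as pairs. Without that subtraction r between any allogeneic and any autologous array was 0.943 to 0.994. In the lower-numbered arrays the count of 3 was 0 with the replicate block, 0 without a trend, and 0 to 1154 without 1 array. The 401 differences between array sets were 0 with actin and 2 without allogeneic replicate 2, a fit added after seeing the data. The SD of the median gene was 0.263 after quantile normalization and 0.277 to 0.295 without 1 array. Gapdh in place of actin gave a 3′ minus 5′ difference between sera of -0.0227 against 0.22, and r of the first component with actin was 0.27 without 2 arrays. No alternative turned the sign of the 3 called probe sets. The causes of these changes were not tested. The number of arrays limits the precision.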
